A study of Homo sapiens with 3 samples.

Results

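Nonsense-mediated decay (NMD) factors were described in 3 RNA-seq libraries labelled HepG2, an established line from a human liver cancer. The members were 9 genes chosen by symbol, UPF1, UPF2, UPF3A, UPF3B, SMG1, SMG5, SMG6, SMG8 and SMG9. Each had exactly 1 row among the 39320 gene rows on assembled chromosomes, so 9 of 9 were found. All 3 libraries were labelled wild type, were made from polyadenylated RNA and formed 1 group with no treated or edited counterpart, so no comparison between conditions was possible. The labels did not say whether the replicates were separate cultures, and the spread given here may therefore be technical.

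NMD is the quality control pathway that removes messenger RNAs whose stop codon lies too far upstream, most often when an exon junction complex remains on the RNA downstream of the terminating ribosome. UPF1, an RNA helicase, is recruited at termination, UPF2 and UPF3 proteins link it to the junction complex, and the kinase SMG1 phosphorylates it under the control of SMG8 and SMG9. Phosphorylated UPF1 then recruits SMG6, an endonuclease that cuts the RNA, and SMG5, which helps to bring in deadenylation and decapping. The study concerned splice variants of METTL3, the catalytic writer of m6A, and transcripts with a premature stop codon are typical substrates of this machinery. The paper also states that some such RNAs evade NMD. It describes the truncated protein of its variant METTL3-D as stable in patient tissue.

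The labelled liver origin was checked against 10 hepatocyte secreted protein genes. Of these, 9 were below 1 TPM (a transcript abundance scaled for gene length and to the same total in each library) in all 3 libraries, and 6 (ALB, APOA1, APOB, SERPINA1, FGB and APOH) were listed at 0 throughout. RBP4, the retinol carrier, was the exception at 10.99 ± 0.508 TPM (SD, n = 3). AFP, the fetal liver protein by which HepG2 is often recognised, was at most 0.025 TPM. These values go against the hepatocyte markers usually found in HepG2, so the identity of the cells is in doubt, and the levels below are those of the libraries labelled HepG2. Mitochondrially encoded genes took 19.9% to 20.3% of the TPM in each library. The tables hold no read counts, so the depth is unknown, and the highest coverage per FPKM, a relative measure of depth, was 1.16 and 1.12 times as high in replicates 1 and 2 as in replicate 3. No pair of libraries was a duplicate, since at most 7 rows above 0 had the same TPM in a pair.

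Some NMD factor genes make annotated transcripts that are themselves predicted targets of the pathway, and the stop codons of these are shown as examples of the stop codon position that the pathway reads. GENCODE v44 labels 5 transcripts of 4 members as NMD substrates. These 4 are 44.4% of the 9 members, close to the 48.1% of 11389 protein-coding genes averaging 1 TPM or more that have such a transcript, so the count does not set the members apart. Each sequence below is read 5′ to 3′ from GRCh38, with the stop codon in capitals. SMG1-213, SMG8-205 and SMG9-206 have no annotated start codon. Their exon numbers may therefore not be those of the whole messenger RNA.
UPF1-215, exon 9 of 24: cacagattatggcgaTGAgatcgccattga
UPF1-216, exon 7 of 13: actacgacaagaagcTGAaggagtcccaga
SMG1-213, exon 9 of 10: gaaggccatggtcatTAGaacttttttcta
SMG8-205, exon 1 of 3: cctaaatcaggtagcTAAaatttgttcagc
SMG9-206, exon 4 of 7: tgccacatcctgcatTGAgcctcttcctgg
The stop codon of UPF1-215 lies at chr19:18854611-18854613 on the plus strand, with 15 exon junctions after it and 2191 nt to the last one. In UPF1-216 it lies at chr19:18852283-18852285, with 6 junctions after it. The SMG1-213 stop at chr16:18868347-18868349 on the minus strand has 1 junction after it, at 157 nt. The stops of SMG8-205 (chr17:59211816-59211818, plus strand) and SMG9-206 (chr19:43740059-43740061, minus strand) fall outside the exons of the MANE Select transcript, the reference transcript of the gene, and have 2 and 3 junctions after them. No such transcript is annotated for UPF2, UPF3A, UPF3B, SMG5 or SMG6. The deposited tables give 1 value per gene, so none of the TPM below could be divided between these transcripts and the coding ones.

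UPF1 and SMG5 had the highest levels of the 9 genes, and SMG6 the lowest. The mean levels spanned a 7.71-fold range with a median of 32.9 TPM, beside 15.4 TPM for the 13753 genes averaging 1 TPM or more and 33.1 TPM for the 8419 genes averaging 10 TPM or more. At least 10 TPM was reached in every library by 8 of the 9 members, against 20.7% of all rows and 59.2% of rows averaging 1 TPM or more. The exception was SMG6.

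UPF1, the helicase at the centre of the pathway, was at 66.5, 66.6 and 64.9 TPM in replicates 1, 2 and 3, a mean of 66.0 ± 0.964 (SD, n = 3). Its row covers chr19:18831405-18868232 on the plus strand of GRCh38, and its mean ranked at the 83.3 percentile of genes averaging 1 TPM or more. UPF2, the scaffold that joins UPF1 to the UPF3 proteins, was far lower, at 14.8, 13.4 and 12.8 TPM (13.6 ± 1.04; chr10:11920022-12043170, minus strand). Its highest value was well below the lowest value of UPF1, and its mean sat at the 46.9 percentile.

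UPF3A and UPF3B are paralogs that bind UPF2 and the exon junction complex. UPF3A was at 49.5, 47.9 and 51.7 TPM (49.7 ± 1.89; chr13:114281584-114305817, plus strand). UPF3B, the X-linked paralog, was at 48.0, 45.7 and 47.3 TPM (47.0 ± 1.15; chrX:119805311-119853028, minus strand). The 2 ranges overlapped, although UPF3A was the higher in each of the 3 libraries.

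SMG1, the kinase, was at 36.0, 31.9 and 30.9 TPM, with a mean of 32.9 ± 2.71 (SD, n = 3; chr16:18804853-18926428, minus strand). SMG9, a subunit of the SMG1 complex, was at 30.6, 30.7 and 30.9 TPM (30.7 ± 0.141; chr19:43727983-43754962, minus strand). SMG8, the other regulatory subunit, was at 15.2, 14.3 and 13.8 TPM (14.4 ± 0.713; chr17:59210010-59215250, plus strand). SMG1 and SMG9 were thus close to each other, and SMG8 was below both in every library.

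SMG5, the effector linked to deadenylation and decapping, was at 53.8, 51.7 and 51.4 TPM (52.3 ± 1.33; chr1:156249224-156291498, minus strand). SMG6, the endonuclease, was at 9.07, 8.70 and 7.91 TPM (8.56 ± 0.593; chr17:2059839-2303836, minus strand). SMG6 sat at the 35.3 percentile and its row, at 243998 bp, was the longest of the 9, while that of SMG8 was the shortest at 5241 bp.

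**Figure D1:**
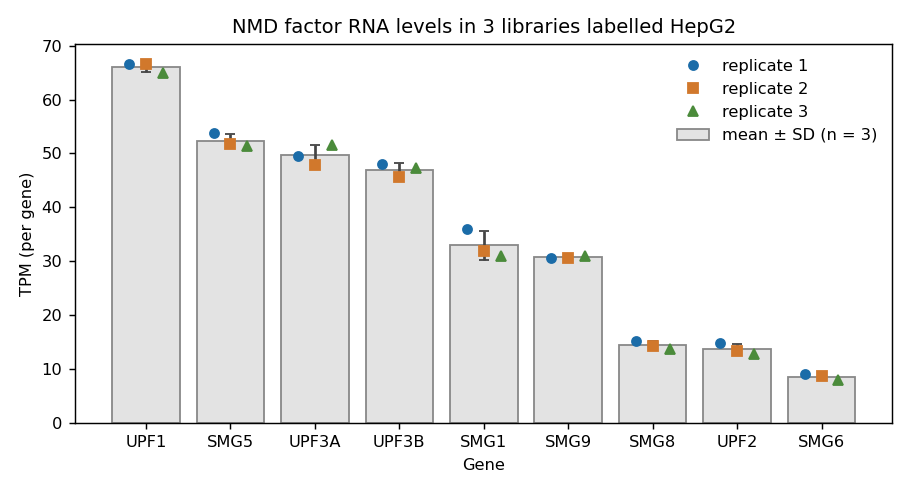
Bars give the mean TPM and error bars the SD over 3 libraries labelled HepG2 for each of the 9 NMD factors, and points give each library. UPF1 stands highest at 66.0 and SMG6 lowest at 8.56, with a wide step between SMG9 at 30.7 and SMG8 at 14.4.

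In the order of mean TPM, UPF1, SMG5, UPF3A, UPF3B, SMG1, SMG9, SMG8, UPF2 and SMG6, 5 of the 8 neighbouring pairs had library values that did not overlap. These were UPF1 above SMG5, UPF3B above SMG1, SMG1 above SMG9, SMG9 above SMG8 and UPF2 above SMG6. The step from SMG1 to SMG9 was within the spread of its ratio, at 0.09 ± 0.12 on the log2(TPM + 1) scale, with the lowest SMG1 value and the highest SMG9 value both at 30.9. SMG5 with UPF3A, UPF3A with UPF3B, and SMG8 with UPF2 overlapped.

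Ratios between members with a shared role were compared within each library, as the difference of log2(TPM + 1). UPF1 exceeded UPF2 by 2.10, 2.24 and 2.26, a mean of 2.20 ± 0.09 (SD, n = 3), which was a TPM ratio of 4.85 ± 0.314. UPF2 stood at -1.71 ± 0.09 relative to UPF3B, at -1.63, -1.70 and -1.81 in replicates 1, 2 and 3. UPF2 thus had the lowest RNA level of the 4 UPF genes in every library.

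SMG5 exceeded SMG6 by 2.44, 2.44 and 2.56, a mean of 2.48 ± 0.06 and a TPM ratio of 6.12 ± 0.320. In the kinase complex, SMG1 exceeded SMG8 by 1.14 ± 0.05 (TPM ratio 2.29 ± 0.0781) and SMG8 stood at -1.04 ± 0.07 relative to SMG9. UPF3A exceeded UPF3B by only 0.08 ± 0.04, a TPM ratio of 1.057 ± 0.0321. Each of the 7 ratios had the same sign in 3 of 3 libraries, and each gave p = 0.25 when the signs of the library values were flipped in all ways (exact permutation test, two-sided), and 0.25 after Benjamini-Hochberg adjustment over the 7 ratios. This is the smallest p that 3 libraries allow, so the design could not reach 0.05.

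**Figure D2:**
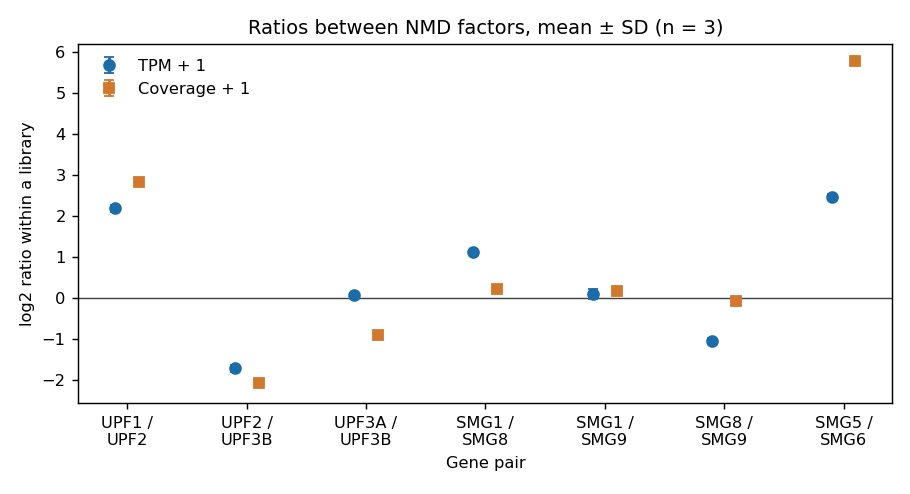
The log2 ratio within a library, with a pseudocount of 1, is plotted for 7 pairs of NMD factors as the mean ± SD over 3 libraries, from TPM (circles) and from coverage (squares). The 2 measures lie on opposite sides of 0 for UPF3A over UPF3B, at 0.08 and -0.90, and farthest apart for SMG5 over SMG6, at 2.48 and 5.78.

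Coverage, deposited beside TPM as the read depth over a gene and not scaled for library size, gave a different picture for some members. UPF1 had 376.1, 368.7 and 321.6 and SMG5 had 307.3, 289.2 and 257.1, while SMG6 had only 4.56, 4.37 and 3.65. The coverage ratio of SMG5 to SMG6 was 68.0 ± 2.21 (SD, n = 3), against the TPM ratio of 6.12. UPF3B had 225.7, 210.7 and 194.8 and UPF3A had 118.1, 110.5 and 107.1, so the order of the paralogs turned, with a coverage ratio of UPF3A to UPF3B of 0.532 ± 0.0150. SMG1 had 101.9 ± 14.4, SMG9 had 89.4 ± 8.06 and SMG8 had 86.1 ± 9.83, and the ratio of SMG8 to SMG9 was 0.961 ± 0.0239, against 0.469 ± 0.0251 in TPM. UPF2 had 49.3 ± 6.62, and UPF1 exceeded it 7.25 ± 0.442-fold in coverage.

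Where coverage and FPKM (fragments scaled for gene length and library size) come from the same reads over the same length, their ratio is a constant of the library. Expressed as a share of the highest ratio in the library, it was 1.00 for SMG8, 0.911 for SMG5, 0.902 for UPF1, 0.750 for UPF3B and 0.603 for UPF2. SMG1 had 0.517, SMG9 0.487, UPF3A 0.378 and SMG6 0.0819. At least 0.99 of the highest in every library was reached by 1 of the 9 members, against 21.9% of the 11965 rows with at least 1 FPKM in every library, and 0.25 or less was found for 1 member, SMG6, against 13.7% of those rows. The share hardly moved between libraries, at 0.0801, 0.0818 and 0.0839 for SMG6. The number of annotated transcripts differed between the same genes, with 20 for SMG6, 17 for UPF1, 16 for SMG1, 13 for SMG9, 12 for UPF3A, 6 for SMG8, 5 for SMG5, 4 for UPF2 and 3 for UPF3B. SMG5, with 5 transcripts, and UPF1, with 17, had nearly the same share. The part of transcript number in the coverage per FPKM was not tested.

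**Figure D3:**
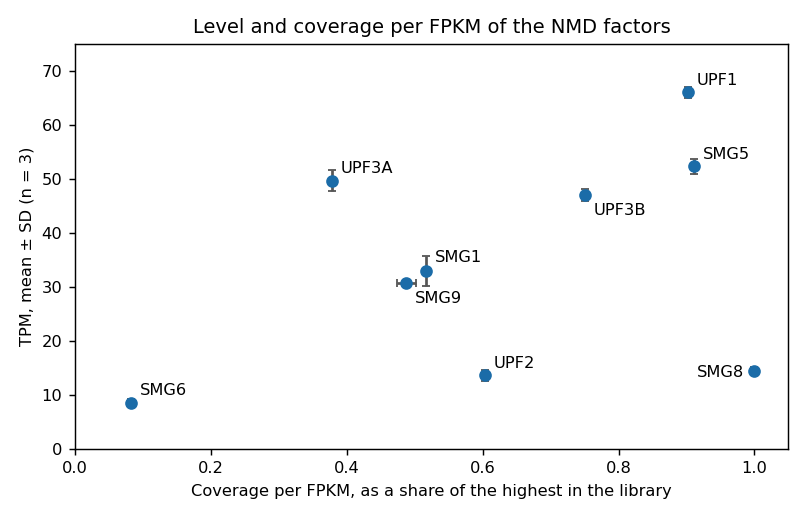
Mean TPM (vertical axis, error bars SD, n = 3) is plotted against coverage per FPKM as a share of the highest in the library (horizontal axis, error bars SD, n = 3). SMG6 stands apart at 0.0819, and UPF3A has a TPM close to that of UPF3B at 0.378 against 0.750.

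The paralogs UPF3A and UPF3B were further compared by sequence. Over 1305 aligned coding bases of the MANE Select transcripts, 889 were identical, which is 68.1%. The fourth exon of UPF3A is shown because one coding transcript, UPF3A-201, lacks it and UPF3A-202, the MANE Select transcript, has it. It covers chr13:114286302-114286400 on the plus strand, and its 99 bases are a whole number of codons. In the lines below, 98 bases are aligned with UPF3B, and capitals mark the 70 that are identical in both. The alignment has a gap of 1 base in each line that is not drawn, so capitals do not match by column between the gaps.
UPF3A: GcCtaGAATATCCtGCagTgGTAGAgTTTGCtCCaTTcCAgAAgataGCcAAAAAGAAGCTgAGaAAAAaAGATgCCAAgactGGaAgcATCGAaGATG
UPF3B: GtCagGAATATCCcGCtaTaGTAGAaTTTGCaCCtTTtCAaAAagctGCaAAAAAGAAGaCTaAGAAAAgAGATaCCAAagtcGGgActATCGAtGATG
UPF3B also has a coding transcript, UPF3B-202, without the eighth exon of UPF3B-201, a 39 base exon at chrX:119840646-119840684 on the minus strand.
UPF3B exon 8: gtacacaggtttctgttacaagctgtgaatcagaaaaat
Because each table has 1 row per gene, the levels of 49.7 TPM for UPF3A and 47.0 TPM for UPF3B join the forms with and without these exons. No exact window of 50 nt of the UPF3B messenger RNA occurs in another gene's annotated transcript, so the paralogs share none at this length. For UPF3A, 42.4% of its 2321 windows occur elsewhere, above all in the pseudogenes UPF3AP2 (35.0%) and UPF3AP1 (27.6%), and 14.99% of its windows of 150 nt, the read length, do. No row is named for a UPF3A pseudogene in the deposited tables, and the level of UPF3A is uncertain to the extent that reads were assigned between these copies.

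SMG1 has copies on chromosome 16, and 6 of them have rows of their own. SMG1P3 was at 18.1, 17.8 and 14.9 TPM, SMG1P1 at 14.9, 14.8 and 12.5 TPM, SMG1P2 at 12.7, 13.6 and 13.01 TPM and SMG1P5 at 10.4, 9.98 and 10.5 TPM. SMG1P6 (2.44 ± 0.265 TPM) and SMG1P7 (1.64 ± 0.242 TPM) were lower. Summed over the 6 rows, the copies came to 60.7, 59.7 and 55.0 TPM, which was 1.78 ± 0.0936 times the level of SMG1 itself (SD, n = 3). In TPM, SMG1 was above each single copy in every library. Coverage per FPKM, as a share of the highest, was 1.00 for SMG1P3 against 0.517 for SMG1. The order in coverage was not compared.

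The annotated transcripts of the copies were 97.8% to 98.8% identical to the SMG1 messenger RNA where they aligned. All of these alignments lay between positions 368 and 4601 of its 16062 nt. Of the SMG1 windows, 18.1% of those of 50 nt and 6.72% of those of 150 nt occur in other genes' transcripts, so the TPM of SMG1 and of its copies depend on how shared reads were assigned and are uncertain. The stretch below, from exon 15 of SMG1 at chr16:18872247-18872276 on the minus strand, shows how few bases tell the genes apart. Capitals mark bases that differ between the genes.
SMG1: cactgtaactaCggcTacaaagaaacattt
SMG1P1: cactgtaactaTggcCacaaagaaacattt
SMG1P2: cactgtaactacggcCacaaagaaacattt
Counting from 1 at the 5′ end of the stretch, with the SMG1 base first, SMG1P1 and SMG1P3 carry C12T and T16C, and SMG1P2, SMG1P5, SMG1P6 and SMG1P7 carry T16C. SMG8 shares 11.9% of its 50 nt windows with 1 annotated gene that has no symbol, SMG9 shares 0.202%, and UPF1, UPF2, SMG5 and SMG6 share none.

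**Figure D4:**
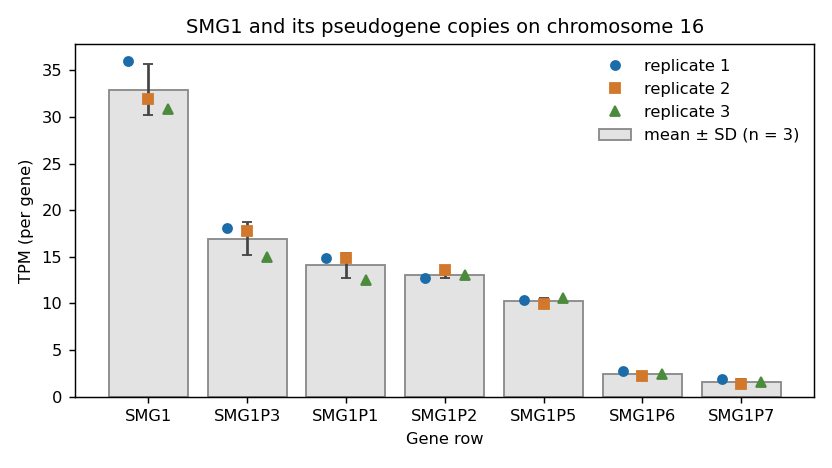
Bars give the mean TPM and error bars the SD over 3 libraries for SMG1 and the 6 rows named for its copies, and points give each library. SMG1 is highest at 32.9, and SMG1P3, SMG1P1, SMG1P2 and SMG1P5 each lie between 10.3 and 16.9.

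All rows that overlap a member lie on the opposite strand, and the strand setting of the authors' quantification is not given in the sources used here. Without strand, reads from overlapping genes cannot be told apart. TMEM79 overlapped SMG5 over 8586 bp and was at 4.99 ± 0.464 TPM, well below SMG5. SRR overlapped SMG6 over 466 bp and was at 12.3 ± 0.114 TPM, above SMG6 itself. HIC1 overlapped SMG6 over 3403 bp at 0.446 TPM, and the overlaps of UPF3B and SMG1 with uncharacterised LOC genes covered 247 and 242 bp. UPF1, UPF2, UPF3A, SMG8 and SMG9 had no overlapping row. The UPF3B row ran 28711 bp beyond the 3′ end of the GENCODE v44 gene. Beyond the 5′ end, the SMG5 row ran 8673 bp and the UPF1 row 554 bp. The SMG8 row, at -610 bp by the same measure, began inside the GENCODE gene. The rows of UPF2 and SMG9 matched GENCODE exactly.

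Most messenger RNAs that escape NMD have their stop codon in the last exon. In the MANE Select transcripts of the members, the stop codon of UPF1 lies 3 nt before the last junction and those of the other members lie in the last exon. An ATG upstream of the coding start occurs once each in the 5′ leaders of UPF2, SMG1, SMG5 and SMG9 and in none of UPF1, UPF3A, UPF3B, SMG6 and SMG8. The 3′ untranslated region runs from 228 nt in SMG8 to 4709 nt in SMG1, with 3613 nt in SMG9 and 1713 nt in UPF1. The coding regions run from 1428 nt in UPF3A to 10983 nt in SMG1, which is spread over 63 exons.

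RefSeq promoters of GRCh38.p14, 250 bases before to 50 bases after the start site, were matched for 8 members, all but SMG8. All 8 promoters were above the median in GC content and in CpG pairs, some only moderately. GC content ran from 59.7% in SMG5 to 78.3% in SMG6, beside a median of 58.7% over 35116 promoters. CpG pairs ran from 22 to 46 beside a median of 14. Among all promoters their number was at the 62.3 percentile in SMG5, 66.1 in UPF2 and UPF3B and 97.1 in SMG6. Motifs were searched on both strands. The TATA box, TATAAA, was in 0 of the 8 and in 11.5% of all promoters, and the GC box, GGGCGG, was in 6 of 8 and in 45.0% of all. The ETS core CCGGAA was in UPF3A, UPF3B, SMG5 and SMG9 and in 17.2% of all, and CCAAT was in UPF1, UPF3B and SMG5 and in 34.6% of all. The motif of NRF1, a regulator of housekeeping genes, GCATGCGC, was in UPF3A and SMG9 and in 3.05% of all promoters. The printed stretches, with the motif in capitals, lie at chr13:114281627-114281650 on the plus strand for UPF3A and chr19:43754916-43754945 on the minus strand for SMG9. In both genes the motif lies after the start site, and in UPF3A it holds the ATG of the coding start. The levels of UPF3A and SMG9 were 49.7 and 30.7 TPM, in the middle of the order.
UPF3A: cggagagtgcgGCATGCGCtcgga
SMG9: cagccctcagcGCATGCGCaggacgagtcg

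The spread between libraries was small for most members. The coefficient of variation (SD over mean) ran from 0.461% for SMG9 to 8.24% for SMG1, with a median of 3.81%, beside a median of 4.88% for genes averaging 10 TPM or more. UPF1, UPF3B and SMG5 were at 1.46%, 2.46% and 2.55%, UPF3A and SMG8 were at 3.81% and 4.95%, and UPF2, SMG6 and SMG1 were at 7.62%, 6.93% and 8.24%. These values are for TPM as deposited, and the order of spread depended on the scaling. With median-of-ratios scaling, SMG9 had an SD of 1.02 on a mean of 30.7 TPM and SMG5 one of 0.348 on 52.2 TPM. UPF3A then had 2.85 on 49.7 TPM and SMG1 had 1.73 on 32.9 TPM. A range of log2(TPM + 1) above 0.5 was found for 0 of the 8 members averaging 10 TPM or more, against 1.41% of 8419 genes, and this was a count with no test.

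In TPM as deposited, the 3 most variable members were all highest in replicate 1. With median-of-ratios scaling their SDs were smaller, at 1.73 TPM against 2.71 for SMG1, 0.632 against 1.04 for UPF2 and 0.379 against 0.593 for SMG6. SMG1, UPF2 and SMG6 were higher in replicate 1 than in replicate 3 by 0.21, 0.20 and 0.18 on the log2(TPM + 1) scale, given as values with no test, and SMG8, SMG5 and UPF3B were also highest in replicate 1. Replicate 1 held the highest value for 5 of the 8 members averaging 10 TPM or more, against 62.5% of such genes. Across genes, the difference between replicates 1 and 3 moved with transcript length. Its median was 0.00 for 2119 genes with a MANE Select transcript of up to 2000 nt, 0.07 for those up to 4000 nt, 0.11 for those up to 6000 nt and 0.15 for 1164 longer ones, of which 91.4% were higher in replicate 1. SMG1, with 16062 nt, is in the last class, UPF3A, UPF3B and SMG8 are in the second, and the others are in the third. UPF1 and SMG9, at 5321 and 5491 nt, differed by only 0.04 and -0.01. The part of length or RNA quality in these differences was not tested.

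The other genes of the pathway were described by lists. Beside the counts given for them, 10 TPM in every library was reached by 59.2% of rows averaging 1 TPM or more and 20.7% of all rows. Of 7 further NMD factors, 6 reached 10 TPM in each library and the median was 82.4 TPM. DHX34, a helicase that acts with SMG1 and UPF1, was at 23.5 ± 1.21 TPM, and NBAS was the lowest at 9.39, 8.71 and 8.10 TPM. RUVBL1 and RUVBL2, ATPases with many roles outside NMD, were at 182 ± 1.35 and 202 ± 5.03 TPM.

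All 6 genes of the exon junction complex list reached 10 TPM in each library, with a median of 96.5 TPM. The core genes EIF4A3, MAGOH and RBM8A were at 160.0 ± 7.39, 122 ± 14.4 and 70.7 ± 1.23 TPM, and MAGOHB, the second MAGOH gene, was at 22.5 ± 0.414 TPM. RNPS1, a peripheral factor, was the highest at 261 ± 15.5 TPM. UPF2, SMG8 and SMG6, at 13.6, 14.4 and 8.56 TPM, were each below all 6 genes of this list. Among the termination and cap or tail binding genes, 5 of 6 reached 10 TPM in each library. The release factors ETF1 and GSPT1 were at 151 ± 4.26 and 97.7 ± 6.50 TPM, GSPT2 was listed at 0, and PABPC1, the poly(A) binding protein that opposes NMD, was at 823 ± 47.1 TPM.

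Of 9 decay genes, 7 reached 10 TPM in each library and the median was 31.8 TPM. The decapping enzyme DCP2 was the lowest at 7.95 ± 1.02 TPM, near SMG6 in TPM only. Its coverage per FPKM, as a share of the highest, was 0.879 against 0.0819 for SMG6. XRN1, the exonuclease that degrades the 3′ fragment after SMG6 cleavage, was at 11.7 ± 0.895 TPM. SMG1 belongs to the PIKK kinases, and the other 5 of that family ranged from 6.65 ± 0.332 TPM for ATM to 111 ± 11.4 TPM for PRKDC. All 5 were highest in replicate 1, as SMG1 was, beside 62.5% of all genes averaging 10 TPM or more. The MANE Select transcripts of these 5 are 8158 to 13459 nt long, in the length class where 91.4% of genes were higher in replicate 1 than in replicate 3, so nothing particular to the family is read from this. The 3 PIKK assembly genes TELO2, TTI1 and TTI2 ranged from 10.4 to 60.6 TPM.

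RNAs that are known to be lowered by NMD were all detected, with 10 of 10 at 10 TPM or more in every library and a median of 52.0 TPM. That limit was reached by 59.2% of rows averaging 1 TPM or more, and the list was chosen with earlier results of these data known. GAS5, a non-coding host of small nucleolar RNAs, was at 521 ± 20.1 TPM, ZFAS1, a host of the same kind, at 243 ± 19.6 TPM and ATF4, a stress regulator with upstream reading frames, at 237 ± 8.73 TPM. GADD45B was the lowest at 13.2 ± 0.140 TPM. With 1 condition, these levels give no measure of NMD activity.

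**Figure D5:**
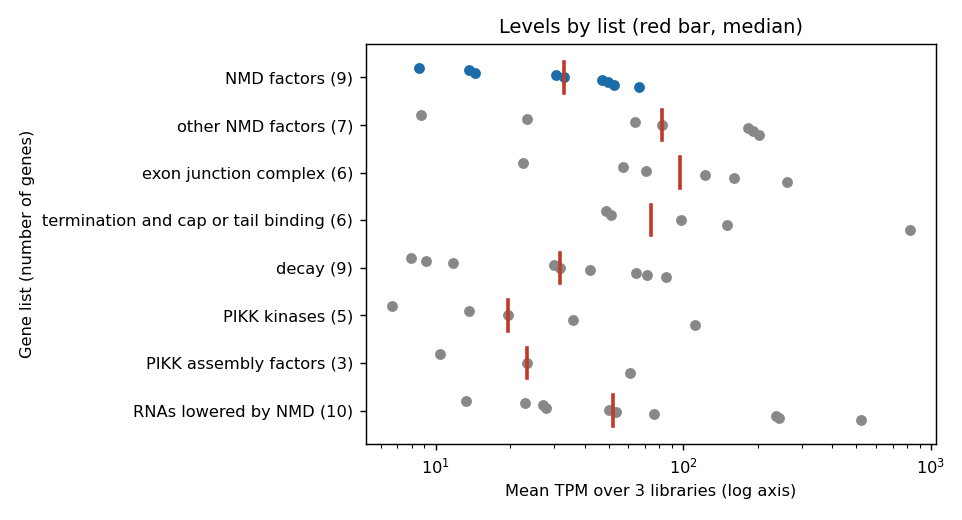
Points give the mean TPM over 3 libraries of each gene, on a log axis, for the 9 NMD factors (blue) and for 7 lists of related genes (grey), and red bars give the list medians. GSPT2, listed at 0, cannot be shown on the log axis but counts in its list's median. The NMD factors centre at 32.9, near the decay genes at 31.8 and below the exon junction complex at 96.5.

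The gene whose log2(TPM + 1) lay nearest to each member over the 3 libraries was found among 13753 genes. It was HOXC10 for UPF1 (mean absolute difference 0.0046), DHX57 for UPF2 (0.0064), MTIF2 for SMG1 (0.0065) and HSPB7 for SMG5 (0.0070). ARIH1 lay nearest to SMG8 (0.0091), CFDP1 to SMG9 (0.0091), NXPH4 to SMG6 (0.010), CCNH to UPF3B (0.014) and MIR1244-2 to UPF3A (0.015). These are likenesses of level over 3 libraries of 1 condition.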

How the data were processed

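Polyadenylated RNA of 3 libraries with the label HepG2, wild type, was sequenced as 150 bp paired-end reads. Per the labels and the study's methods, reads were checked with FastQC 0.11.8, trimmed with Trim Galore 0.6.2 and mapped to GRCh38 with STAR 2.6.1a, and StringTie is named in the submitters' processing notes. The annotation and strand setting are not given in the sources used here. The authors deposited 1 gene table per library with coverage (mean read depth, not scaled for library size), FPKM and TPM. No counts were given, so precision is the SD over 3 libraries.

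The 3 tables were merged on gene name, position and strand (43389 shared rows), and the 39320 rows on assembled chromosomes, excluding unplaced and alternate sequences, were used. TPM was used as deposited, with a pseudocount of 1 on the log2 scale. Members were compared within libraries by an exact permutation test (two-sided, signs flipped over libraries) with Benjamini-Hochberg adjustment over 7 ratios. The named genes were the members, the genes of the lists, copies of members, overlapping rows and the nearest gene in level. Members and lists were chosen with earlier results of these data known. Of the list genes, 1 is not reported here and was left out of its list's count and median. Transcripts came from GENCODE v44 and promoters from RefSeq (GRCh38.p14). A shared window is an exact match of a stretch of the MANE Select transcript in a transcript of another gene. The range calculation was tested on simulated data. The calculations used Python 3.11.15, numpy 2.4.6, pandas 2.3.3, scipy 1.17.1, Biopython 1.88 and matplotlib 3.10.9.

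The alternatives were other pseudocounts, FPKM or coverage in place of TPM, other TPM limits, only protein-coding genes, scaling without mitochondrially encoded genes, median-of-ratios scaling and leaving out each replicate.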

Additional observations from a re-analysis of the deposited data

How the results depend on the processing

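With coverage in place of TPM, the log2 ratio of UPF3A to UPF3B reversed to -0.90, that of SMG1 to SMG8 went from 1.14 to 0.24, that of SMG8 to SMG9 from -1.04 to -0.06 and that of SMG5 to SMG6 from 2.48 to 5.78, and the cause was not tested. The median percentile of the members, 69.3, was 77.4 among genes with at least 0.1 TPM, 89.3 with no filter, 64.7 among protein-coding genes and 64.6 with coverage. Leaving out each replicate in turn gave 2.17 to 2.25 for UPF1 to UPF2, -1.76 to -1.67 for UPF2 to UPF3B, 0.05 to 0.10 for UPF3A to UPF3B, 1.11 to 1.15 for SMG1 to SMG8, 0.03 to 0.14 for SMG1 to SMG9, -1.08 to -1.01 for SMG8 to SMG9, 2.44 to 2.50 for SMG5 to SMG6 and 68.5 to 69.8 for the percentile. Scaling without mitochondrially encoded genes raised the mean levels 1.25-fold, to 82.6 TPM for UPF1 and 10.7 TPM for SMG6. The number of members past the TPM limit in every library was 9 at 1 TPM and 6 at 20 TPM. Apart from UPF3A to UPF3B with coverage, the ratios kept their sign under the alternatives tried, and since 3 libraries cannot give a p below 0.25 no ratio could pass or lose a threshold. Libraries could not be paired across conditions because all 3 belong to the same group, and the gene ratios were paired within each library. Without counts, the depth behind the low coverage of SMG6 could not be given.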
